A study of Homo sapiens with 12 samples.

Results

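The comparison described here asks whether knocking down the long noncoding RNA FASRL changed the same genes by the same amount in HepG2 and in LM3. The paper describes both as human hepatocellular carcinoma cell lines. All 12 samples of the series entered the comparison: HepG2 siFASRL, HepG2 siNC, LM3 siFASRL and LM3 siNC, with 3 replicates each, where siFASRL is a small interfering RNA against FASRL and siNC is a negative control. RNA was taken 48 h after transfection, and expression was measured by RNA-seq. Of 8842 genes with deposited values, 8285 had a value of at least 1 in 3 or more of the 12 samples and were tested. For each gene the knockdown effect was the siFASRL mean minus the siNC mean of log2(value + 1), and the difference between the lines was the LM3 effect minus the HepG2 effect, so that a negative difference means a lower effect in LM3.

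The deposited values are expression values computed with RSEM, and whether they are FPKM or TPM is not stated in the sources used here. They are not counts, so the depth of each sample is unknown and precision was taken from the spread of the 3 replicates. Summed over the listed genes, they came to between 347211 and 355094 in HepG2 siFASRL, between 333193 and 338379 in HepG2 siNC, between 346884 and 348573 in LM3 siFASRL, and between 316534 and 321859 in LM3 siNC. FASRL itself was not among the listed genes, so its knockdown could not be checked here. The submitters' notes name the genome build hg19, whereas the chromosome accessions in the tables are those of GRCh38, and whether reads were counted by strand is not given in the sources used here, so reads of overlapping antisense genes may be shared. The paper states that its cell line experiments were done 3 or more times and that representative data are shown. Whether these replicates came from separate cultures is not given in the sources used here, and p-values therefore measure only the spread between these samples.

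Tumor cell lines can differ in which genes they transcribe at all. Hepatocyte genes such as those for albumin and apolipoproteins are driven by a set of liver transcription factors and are kept by some hepatocellular carcinoma lines and lost by others. A gene that is off in the control state of a line can rise there but has no transcript left to lose, whereas a gene that is on in both lines can respond with different size or direction. An interaction on a log scale detects both situations, and they were therefore separated by the siNC mean of each line, with a mean under 1 called silent.

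The labelled tumor type was checked against hepatocyte markers, 16 of which were listed. They summed to between 4725.07 and 5238.25 in the HepG2 siNC samples, and all 16 had a value of at least 1 there. In LM3 siNC the sum was between 23.88 and 32.7, of which the transcription factor gene HNF4A made up 14.39, 14.4 and 14.23. Between 2 and 4 of the 16 markers reached 1 in an LM3 siNC sample, so that most hepatocyte markers were at or near 0 in LM3. The sum was between 2759.56 and 2826.77 in HepG2 siFASRL and between 11.85 and 13.31 in LM3 siFASRL. By the limma test of each line 15 of the 16 markers fell in HepG2 and 7 fell in LM3, where over all tested genes 44.6% fell and 45.2% rose in HepG2, and 42.3% fell and 31% rose in LM3. Of the 16 markers, 13 were silent in LM3 siNC, and such traces differed between LM3 samples, as given at the end. In such bulk samples, fewer cells of a type and less RNA per cell cannot be told apart.

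Markers of other cell types were also summed. The 8 listed of 9 cholangiocyte and progenitor markers came to between 1010.66 and 1056.86 in HepG2 siNC and between 1181.18 and 1232.93 in HepG2 siFASRL, and to between 331.2 and 346.12 in LM3 siNC and between 436.74 and 451.91 in LM3 siFASRL, where the keratin gene KRT7 was the most abundant. The higher sums came from keratin genes. In HepG2, 6 of the 8 fell while KRT7 and KRT19 rose, and in LM3, 4 fell and KRT7 rose, with median effects of -0.56 and -0.22 (genes named after their values were seen). Over all tested genes 44.6% fell and 45.2% rose in HepG2, and 42.3% fell and 31% rose in LM3. The LM3 count of falling markers lies near that share. The 7 listed of 11 fibroblast and stellate cell markers came to between 81.48 and 83.47 in HepG2 siNC and between 48.31 and 54.26 in HepG2 siFASRL, led by COL3A1 and ACTA2. In LM3 they came to between 14.51 and 17.14 in siNC and between 5.14 and 6.13 in siFASRL, led by COL1A1. Of the 5 tested, 4 fell and 1 rose in HepG2, and 3 fell in LM3, beside 44.6% and 42.3% of all tested genes that fell. The 3 listed of 12 immune cell markers, led by LYZ or CD68, came to between 123.03 and 128.89 in HepG2 siNC and between 92.4 and 100.82 in HepG2 siFASRL, and to between 15.1 and 19.03 in LM3. VWF, the only listed endothelial marker, did not exceed 0.35 in any sample. The part of these marker levels in the results was not tested.

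The knockdown effect differed between the lines for 3868 of 8285 genes (46.7%), called where limma gave the difference an adjusted p below 0.05. The difference was positive for 1612 genes (19.5%) and negative for 2256 genes (27.2%). For 401 genes (4.84%) it reached at least 1 on the log2 scale, 191 of them positive and 210 negative. The 210 include 19 genes low in both controls, 2 silent in LM3 siNC and 2 silent in HepG2 siNC that passed the filter only through siFASRL samples. The split of the 401 by sign is therefore given as a description. The median effect over all tested genes was 0.1 in HepG2 and -0.06 in LM3, and the median difference was -0.05. When the effects of each line were centred on their own median, the median difference moved to 0.11 and the share of positive differences among the called genes went from 41.7% to 68.6%. Under median-of-ratios scaling this share was 52.7%, so the balance of positive and negative differences depended on scaling. Among differences of at least 1 the positive share was 47.6%, which counts the genes that passed only through siFASRL samples, and 69.1% with centring. In HepG2 the siFASRL and siNC values did not overlap for 7431 genes (89.7% of those tested), and in LM3 for 6300 genes (76%). The list of deposited genes bears on these HepG2 values, since 22 tested genes had a HepG2 effect between -0.2 and -0.04 and 1087 had one between 0.04 and 0.2, against 994 and 914 in LM3. How the listed genes were selected is not given in the sources used here, and the part of this gap in the share of genes without overlap, in the HepG2 median and in the centring on it was not tested.

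Among the genes whose effects differed by at least 1, 177 were silent in LM3 siNC, 17 were silent in HepG2 siNC and 19 were low in both controls. The other genes were expressed in both controls, namely 90 with opposite effects, 72 with the larger effect in HepG2 and 26 with the larger effect in LM3. Genes silent in LM3 were the most numerous of these classes. Of all tested genes, 711 (8.58%) were silent in LM3 siNC, 141 (1.7%) in HepG2 siNC and 90 (1.09%) were low in both, whether their effects differed or not. With a pseudocount of 0.1 in place of 1, which widens the scale of low values, 664 genes differed by at least 1, of which 275 were silent in LM3, 42 were silent in HepG2 and 81 had the larger effect in LM3. Under quantile normalization 115 genes had the larger effect in HepG2, 14 had the larger effect in LM3 and 11 were silent in HepG2. With centred effects 16 had the larger effect in LM3 and 11 were silent in HepG2.

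**Figure D1:**
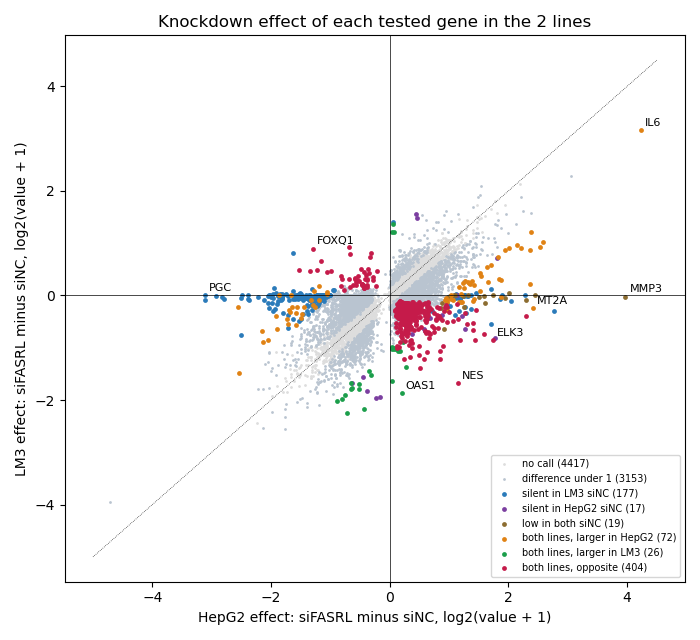
Knockdown effect in HepG2 (horizontal axis) and LM3 (vertical axis) of each of the 8285 tested genes, siFASRL minus siNC on the log2(value + 1) scale, where each point is a gene, the color is its class, and the dotted line marks equal effects. Genes silent in LM3 siNC lie along the horizontal axis, and the 404 genes with opposite effects lie mostly to the lower right.

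Genes silent in LM3 siNC alone were mainly lower after knockdown in HepG2, whether their effects differed or not. Of the 177, 144 were lower in HepG2 siFASRL and 33 were higher. Among all 711 tested genes silent in LM3 siNC alone these were 541 and 170, and among all 8285 tested genes 3730 and 4555. This class asks for a HepG2 siNC mean of at least 1, which leaves out the 90 tested genes low in both controls. Of those 90, 88 were higher in HepG2 siFASRL and 2 were lower, so the balance depends in part on this split. The 177 had a median HepG2 effect of -1.34 and a median LM3 effect of -0.03. In 127 of them the LM3 effect was smaller than 0.1 in size. The LM3 siFASRL mean stayed under 1 for 175 genes, and it reached 1 for 2 genes, RGS5 and ANKRD1, named here after their values were seen.

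PGC, which encodes the digestive enzyme precursor progastricsin, had values of 63.51, 60.25 and 58.67 in HepG2 siNC and of 6.87, 5.73 and 5.83 in HepG2 siFASRL. All 3 LM3 siNC samples listed it at 0, and the LM3 siFASRL samples at 0.03, 0 and 0. The HepG2 groups were far apart and no LM3 sample held more than a trace. The HepG2 effect was -3.12 (standard error 0.06), and the difference between the lines was 3.13 (limma interaction adjusted p = 5.33e-11).

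APOC3, an apolipoprotein of triglyceride-rich particles, went from 51.85, 53.8 and 47.6 in HepG2 siNC to 5.31, 5.6 and 4.21 in HepG2 siFASRL. In LM3 siNC it was at 0, 0.1 and 0.18, and in LM3 siFASRL at 0, 0 and 0.08. The HepG2 groups did not overlap, whereas the LM3 groups did. Its difference was 3.03 (limma interaction adjusted p = 2.38e-09). HAMP, the gene of the iron-regulating hormone hepcidin, had a HepG2 mean of 273.87 ± 4.83 in siNC and 37.74 ± 2.51 in siFASRL (SD, n = 3), and PLA2G2A, a secreted phospholipase, fell there from 224.19 ± 26.0 to 31.35 ± 2.91 (SD, n = 3). In LM3 neither gene exceeded 0.25 in a sample.

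TFF1, a secreted trefoil peptide, moved the other way. It had values of 0.95, 1.31 and 2.14 in HepG2 siNC and of 13.38, 18.82 and 14.6 in HepG2 siFASRL. In LM3 siNC it was at 0.3, 0.11 and 0.3, and all LM3 siFASRL samples listed it at 0. It was high only in the HepG2 siFASRL samples, through which it passed the filter on low values, so its difference of -3.07 is given as a description. Of the 177 genes, only TFF1 and RRAD, the latter named after its values were seen, had fewer than 3 siNC samples at 1 or more.

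Hepatocyte gene lists held many genes silent in LM3. Of 53 tested genes for hepatocyte secreted proteins, 40 were silent in LM3 siNC, beside 8.58% of all tested genes. In this list 52 fell in HepG2 and 17 in LM3, beside 44.6% and 42.3% of all tested genes. The difference was positive for 45 of the 53 and negative for 4 (22 and 4 with a pseudocount of 0.1), beside 19.5% positive and 27.2% negative over all tested genes. The negative ones include HABP2, named after its values were seen, whose mean reached 1 in HepG2 siFASRL only. Its direction is tied to the filter on low values and is not a result. The median difference of the list was 0.7, from 0.6 to 0.9 over 10 settings of pseudocount, filter, scaling, centring, variance model and replicate block, and that of all tested genes was -0.05, from -0.06 to 0.11 over the same settings, which also give the ranges of the other lists. Among the 12 of them expressed in both lines the median was 0.31. Among further genes of these lists, named after their values were seen, ALB, which encodes albumin, fell in HepG2 from 815.29 ± 31.7 to 234.94 ± 5.62 (SD, n = 3), while its LM3 siNC samples had 0.06, 0.62 and 0.4 and its LM3 siFASRL samples 0.19, 0 and 0, a trace that differed between samples of one group. HP, which encodes the hemoglobin-binding protein haptoglobin, fell in HepG2 from 62.09 ± 5.68 to 13.52 ± 1.26 (SD, n = 3) and was listed at 0 in all LM3 siFASRL samples.

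Among apolipoproteins and lipoprotein assembly genes, 15 of 23 tested genes were silent in LM3 siNC, and 14 had a positive and 7 a negative difference (9 and 6 with a pseudocount of 0.1), beside 19.5% positive and 27.2% negative over all tested genes. The median was 0.52, from 0.26 to 0.68 over the settings. For the 8 of them expressed in both lines, however, the median difference was -0.41. Among 25 hepatocyte transcription factor genes, 12 had a positive and 3 a negative difference, and the median was 0.21 (from 0.1 to 0.37), but -0.07 over those expressed in both lines. C5, a complement component expressed in both lines, fell in HepG2 from 29.64 ± 2.16 to 8.56 ± 0.68 and in LM3 from 3.42 ± 0.34 to 2.54 ± 0.17 (SD, n = 3). NR1H4, the bile acid receptor FXR, named after its values were seen, fell in HepG2 from 12.62, 10.5 and 9.87 in siNC to 1.34, 1.22 and 1.26 in siFASRL and did not exceed 0.25 in LM3. HNF4A, also named after its values were seen, was expressed in both lines, with an effect of -1.05 in HepG2 and -1.0 in LM3 and a difference of 0.05 (95% confidence interval -0.183 to 0.284, limma interaction adjusted p = 0.725). Of 41 tested genes of drug and bile acid metabolism, 22 had a positive and 4 a negative difference, with a median of 0.28 (from 0.17 with the filter at 5 to 0.58 with a pseudocount of 0.1). The negative ones include UGT1A1, named after its values were seen, whose mean reached 1 in HepG2 siFASRL only. Its direction is tied to the filter on low values and is not a result. FMO5, a flavin monooxygenase, fell in HepG2 from 7.51 ± 0.71 to 2.08 ± 0.35 and in LM3 from 1.14 ± 0.29 to 0.68 ± 0.19 (SD, n = 3). CYP27A1, a sterol hydroxylase of bile acid synthesis named after its values were seen, fell in HepG2 from 26.07 ± 3.42 to 6.69 ± 0.54 (SD, n = 3) and stayed at or below 0.1 in LM3.

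Of the 17 genes silent in HepG2 siNC, 11 reached a mean of 1 in HepG2 siFASRL. ANGPTL2 and TMEM156, named after their values were seen, passed the filter on low values only through siFASRL samples. The class held 7 genes in place of 17 when the filter asked for a value of 5 or when silence was set at a mean under 0.5. LBH, a transcription cofactor gene, had values of 0.88, 0.72 and 0.72 in HepG2 siNC and of 5.46, 5.07 and 4.67 in HepG2 siFASRL. In LM3 it went down, from 7.35, 6.94 and 5.93 in siNC to 3.04, 3.75 and 3.34 in siFASRL. The groups did not overlap in either line and moved in opposite directions (difference -2.59, limma interaction adjusted p = 4.31e-09). PPP2R2C, a regulatory subunit of protein phosphatase 2A, did likewise, with an effect of 1.27 in HepG2 and -0.65 in LM3.

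SPINK5, a serine protease inhibitor, was abundant only in LM3. Its values were 132.37, 111.73 and 106.69 in LM3 siNC and 27.39, 30.7 and 30.58 in LM3 siFASRL. In HepG2 it did not exceed 0.17 in any sample. MAP1A, a microtubule-associated protein, fell in LM3 from 4.61 ± 0.4 to 0.44 ± 0.05 (SD, n = 3) and was at or below 0.43 throughout HepG2. PHOSPHO1, a phosphatase of phosphocholine and phosphoethanolamine, fell in LM3 from 3.98 ± 0.51 to 0.4 ± 0.1 (SD, n = 3). PID1, an adaptor of insulin signaling, lay close to the threshold in both controls, at 0.94 ± 0.19 in HepG2 siNC and 1.04 ± 0.04 in LM3 siNC (SD, n = 3).

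**Figure D2:**
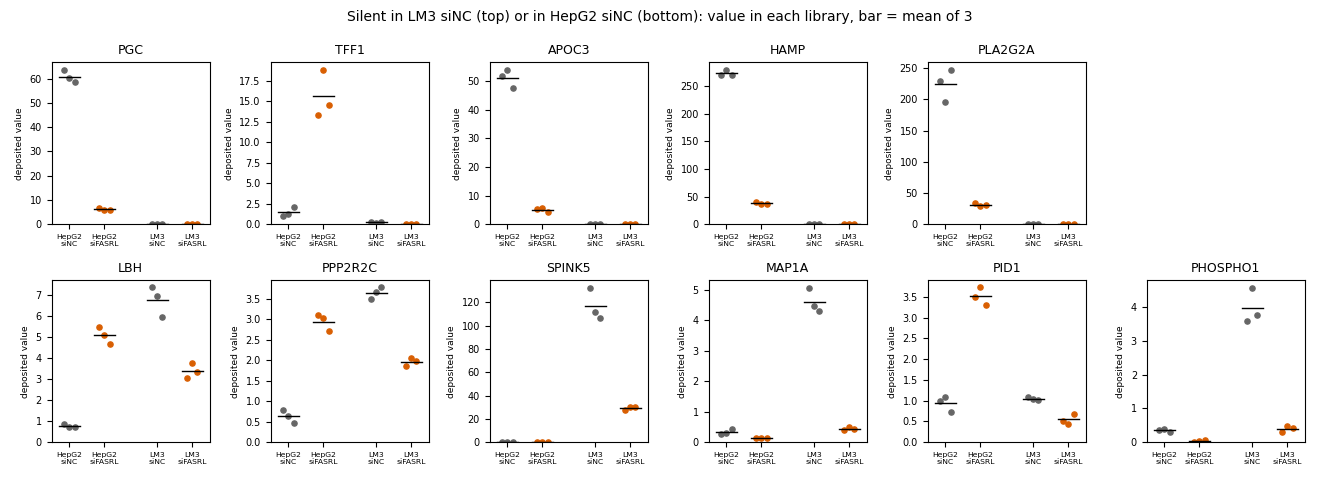
Deposited expression value (vertical axis, each panel with its own scale from 0) in each of the 12 samples for 5 genes silent in LM3 siNC (top) and 6 silent in HepG2 siNC (bottom), with siNC in gray, siFASRL in orange and the mean of 3 replicates as a bar. PGC is at least 58.67 in HepG2 siNC, at most 6.87 in HepG2 siFASRL and at or near 0 in LM3, and SPINK5 shows the converse.

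All 19 genes low in both controls passed the filter on low values only through siFASRL samples, so their direction is not a result. The largest difference of any tested gene was in this class and belonged to MMP3, a matrix metalloprotease, named here after its values were seen. MMP3 was at 0.33, 0.4 and 0.36 in HepG2 siNC and at 20.79, 21.18 and 19.14 in HepG2 siFASRL. It was listed at no more than 0.05 in LM3, and the difference was -3.99, given as a description.

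Among the 7343 tested genes expressed in both controls, 404 (5.5%) had opposite effects, each line passing the test on its own with the other sign. Of these, 358 rose in HepG2 and fell in LM3, and 46 fell in HepG2 and rose in LM3. Most of these effects were small, with medians of 0.3 and -0.33 in the larger group. In 31 genes both effects reached 0.5 in size, 27 of them higher in HepG2, and in 1 gene, NES, both reached 1. The share that was higher in HepG2, 88.6%, was 77.3% under median-of-ratios scaling, 67% under quantile normalization and 72.5% with centred effects. With centring the count was 247, and 225 of these were among the 404. Under quantile normalization it was 358, of which 224 were among the 404, and under median-of-ratios scaling 353, of which 294 were. The near absence of HepG2 effects just below 0 among the listed genes bears on this class too.

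NES encodes nestin, an intermediate filament protein of progenitor cells, and lies on chromosome 1 (156668763 to 156677407 in RefSeq on GRCh38.p14). Its values were 3.19, 3.18 and 3.11 in HepG2 siNC and 8.71, 7.82 and 8.13 in HepG2 siFASRL. In LM3 they were 10.17, 9.75 and 8.92 in siNC and 2.38, 2.44 and 2.13 in siFASRL. The siFASRL samples were thus all above siNC in HepG2 and all below siNC in LM3. The effects were 1.15 (standard error 0.058) and -1.68 (standard error 0.058), and the difference was -2.82 (95% confidence interval -3.0 to -2.65, limma interaction adjusted p = 1.19e-10).

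ELK3, a transcription factor of the ETS family that acts downstream of Ras and ERK, had 6.69, 7.12 and 6.37 in HepG2 siNC and 25.28, 24.38 and 24.65 in HepG2 siFASRL. In LM3 siNC it had 5.91, 5.88 and 5.96, and in LM3 siFASRL 2.89, 2.95 and 2.7. The control levels of both lines lay close together, and the siFASRL samples moved apart in opposite directions without overlap. Its difference was -2.59 (limma interaction adjusted p = 5.33e-11). BTG2, an antiproliferative gene induced by p53, went from 10.06, 8.41 and 9.64 to 29.64, 29.42 and 31.18 in HepG2. In LM3 it went from 15.31, 14.84 and 13.27 to 8.17, 8.39 and 8.3. Control and knockdown samples did not overlap in either line, and the difference was -2.32 (limma interaction adjusted p = 2.22e-09).

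FOXQ1, a forkhead transcription factor, was among the genes that moved the other way. Its values were 55.04, 58.61 and 48.91 in HepG2 siNC and 20.57, 21.44 and 22.46 in HepG2 siFASRL. In LM3 they were 32.5, 34.43 and 29.54 in siNC and 57.84, 64.84 and 59.5 in siFASRL. Every HepG2 siFASRL sample lay below every HepG2 siNC sample, while every LM3 siFASRL sample lay above every LM3 siNC sample. The difference was 2.19 (limma interaction adjusted p = 8.85e-09).

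The rest of the genes with the strongest opposite effects all rose in HepG2 and fell in LM3. F2RL1, a receptor activated by proteases, had effects of 1.18 and -0.86, and its LM3 values were low, between 1.49 and 1.69 in siNC. OLFM1, a secreted olfactomedin protein, had effects of 0.85 and -1.21, and S100A3, a calcium-binding protein, of 0.9 and -0.98. The kinesin motor gene KIF3C had effects of 0.85 and -1.05. Its values were low as well, between 1.31 and 1.51 in LM3 siNC and with a mean of 2.62 in HepG2 siNC. The membrane scaffold gene MPP1 had effects of 0.74 and -0.71. XAGE2 had effects of 1.44 and -0.86, and it belongs to a family of near-identical copies on the X chromosome among which reads may be shared.

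**Figure D3:**
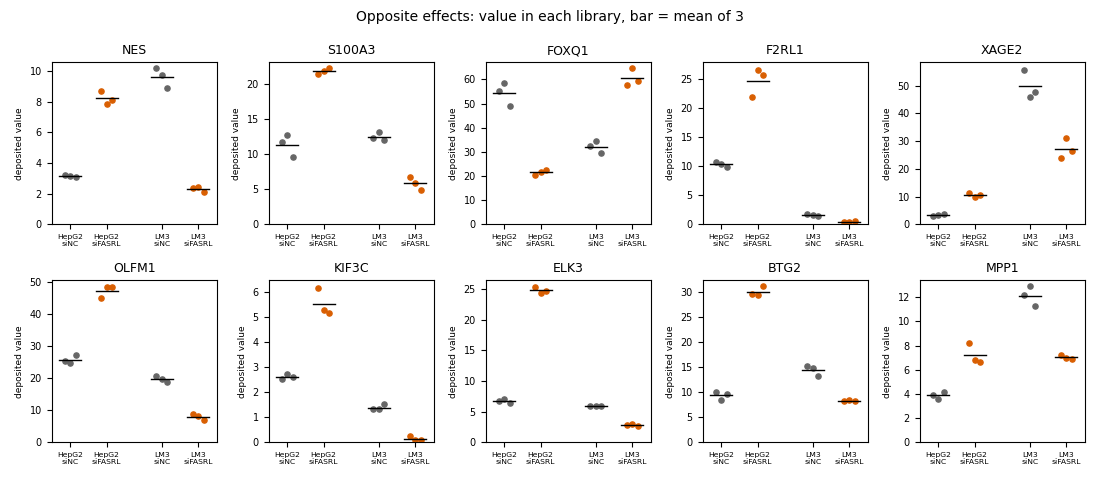
Deposited expression value (vertical axis, each panel with its own scale from 0) in each of the 12 samples for the 10 genes with the strongest opposite effects, with siNC in gray, siFASRL in orange and the mean of 3 replicates as a bar. In 9 genes the siFASRL samples lie above siNC in HepG2 and below it in LM3, and FOXQ1 shows the reverse.

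Pathway lists held further genes of this kind. CTGF, a matricellular protein induced by YAP and TEAD, had values of 29.25, 35.17 and 24.35 in HepG2 siNC and of 15.57, 18.71 and 19.08 in HepG2 siFASRL. In LM3 it had 4.58, 6.04 and 5.99 in siNC and 11.05, 11.73 and 11.45 in siFASRL. It fell in every HepG2 siFASRL sample below the lowest control and rose in LM3 (difference 1.63, limma interaction adjusted p = 7e-06). DKK1, a secreted inhibitor of Wnt signaling, fell in HepG2 from 75.92 ± 0.52 to 25.56 ± 1.21 and rose in LM3 from 9.11 ± 0.37 to 13.12 ± 0.72 (SD, n = 3). AXIN2, a negative regulator of beta-catenin, had an effect of 0.93 in HepG2 and -0.21 in LM3. ACSL5, which activates long-chain fatty acids, rose in HepG2 from 7.65 ± 0.75 to 21.79 ± 0.97 and fell in LM3 from 1.16 ± 0.05 to 0.36 ± 0.07 (SD, n = 3). FST, the activin-binding protein follistatin, fell in HepG2 and rose in LM3 with a difference of 1.45, as did STC2, a secreted glycoprotein of the stress response, with a difference of 1.12.

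Promoters of these genes were searched for short motifs in RefSeq sequences (GRCh38.p14, 250 bases before to 50 bases after the gene start). Promoters were found for 341 of the 404 opposite genes and for 7111 of the 8842 listed genes. The motif GGAATG, the core bound by TEAD factors, was present on either strand in 39 promoters of opposite genes (11.4%), in 10.8% of promoters of listed genes and in 14% of all promoters of the table. It is shown in capitals for 3 opposite genes, since CTGF and DKK1 fell in HepG2 while F2RL1 rose there, and the first of 3 matches is given for CTGF.
CTGF (minus strand, chr6:131951524-131951553): ttttcagacggaGGAATGctgagtgtcaag
DKK1 (plus strand, chr10:52314219-52314248): tcccaaggggccGGAATGctccgggcccgc
F2RL1 (plus strand, chr5:76818824-76818853): tcctgctatttgCATTCCaaagcagacacc
In F2RL1 the match is on the opposite strand and reads CATTCC. The motif TGANTCA, bound by AP-1, was in 6.74% of promoters of opposite genes, 4.85% of those of listed genes and 7.76% of all promoters. In the same order the shares were 7.04%, 9.79% and 7.43% for CACGTG, 3.52%, 3.5% and 1.98% for TGACGTCA, and 6.45%, 6.29% and 12% for TATAAA. A match describes these letters only.

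In 72 genes expressed in both controls the effect was larger in HepG2 without being opposite, 44 of them higher and 28 lower in HepG2 siFASRL, beside 4226 and 3117 of all 7343 genes expressed in both. MT2A, a metallothionein that binds zinc and copper, had values of 247.99, 312.0 and 228.33 in HepG2 siNC and of 1167.53, 1619.21 and 1427.39 in HepG2 siFASRL. In LM3 it had 124.45, 197.71 and 186.25 in siNC and 143.44, 147.3 and 130.69 in siFASRL. The HepG2 groups were well separated, whereas the LM3 groups overlapped. The difference was -2.66 (limma interaction adjusted p = 1.3e-06). MT1E, another metallothionein, rose from 47.35 ± 4.8 to 179.35 ± 44.11 in HepG2 and had 110.0 ± 27.94 and 105.96 ± 10.94 in LM3 (SD, n = 3). Metallothionein genes are close copies of each other, and reads may be shared among them.

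ESAM, an adhesion molecule of tight junctions, had 7.35, 7.46 and 6.62 in HepG2 siNC and 42.38, 41.1 and 39.72 in HepG2 siFASRL. Its LM3 siNC values were 45.25, 41.51 and 40.99, and its LM3 siFASRL values 51.08, 48.25 and 49.99. HepG2 siFASRL samples thus came to the level that LM3 controls already had. SULT2A1, which sulfates bile acids and steroids and had only 1.13 ± 0.19 in LM3 siNC, fell in HepG2 from 17.04 ± 0.69 to 2.1 ± 0.6 (SD, n = 3), and ADIRF, an adipogenesis factor, from 20.58 ± 0.42 to 5.83 ± 0.84 (SD, n = 3). FOLR1, a folate receptor, was near 1811.34 ± 81.17 in LM3 siNC and 1824.35 ± 70.58 in LM3 siFASRL (SD, n = 3). In HepG2, far below that level, it had 5.45, 4.81 and 7.02 in siNC and 0.97, 1.03 and 0.53 in siFASRL. SPINK5, abundant only in LM3, had 0.15, 0.1 and 0.17 in HepG2 siNC and 0.02, 0.03 and 0.01 in HepG2 siFASRL. The end of the text describes a trace of HepG2 genes in LM3. The part of a converse trace in these HepG2 values was not tested.

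The larger effect was in LM3 for 26 genes, 23 of which were lower in LM3 siFASRL, beside 4013 of the 7343. OAS1, an interferon-induced sensor of double-stranded RNA, had values of 15.49, 15.27 and 13.46 in LM3 siNC and of 2.83, 3.81 and 3.33 in LM3 siFASRL. In HepG2 it had 24.97, 19.87 and 23.91 in siNC and 26.86, 27.13 and 25.17 in siFASRL. Every LM3 knockdown sample lay far below the controls, while in HepG2 the siFASRL samples lay just above the controls and the effect did not pass the test (effect 0.2, limma adjusted p = 0.0575). The difference was -2.07 (limma interaction adjusted p = 8.41e-08). MAP2K6, a kinase that activates p38, fell in LM3 from 24.0 ± 0.38 to 4.6 ± 0.73 and in HepG2 from 23.35 ± 0.98 to 17.04 ± 0.8 (SD, n = 3). ANXA6, a membrane-binding annexin, fell in LM3 from 20.99 ± 0.88 to 6.13 ± 0.54 and had 36.36 ± 0.73 and 37.29 ± 1.29 in HepG2 (SD, n = 3). TXNIP, an inhibitor of thioredoxin, rose in LM3 from 25.09 ± 1.46 to 66.49 ± 1.36 and had 28.88 ± 1.6 and 30.13 ± 0.9 in HepG2 (SD, n = 3). LGALS3BP fell in both lines and further in LM3 (difference -1.53). The mitochondrial calcium-binding gene EFHD1 fell in LM3 with an effect of -1.36 and did not pass the test in HepG2 (effect 0.27, limma adjusted p = 0.0683).

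**Figure D4:**
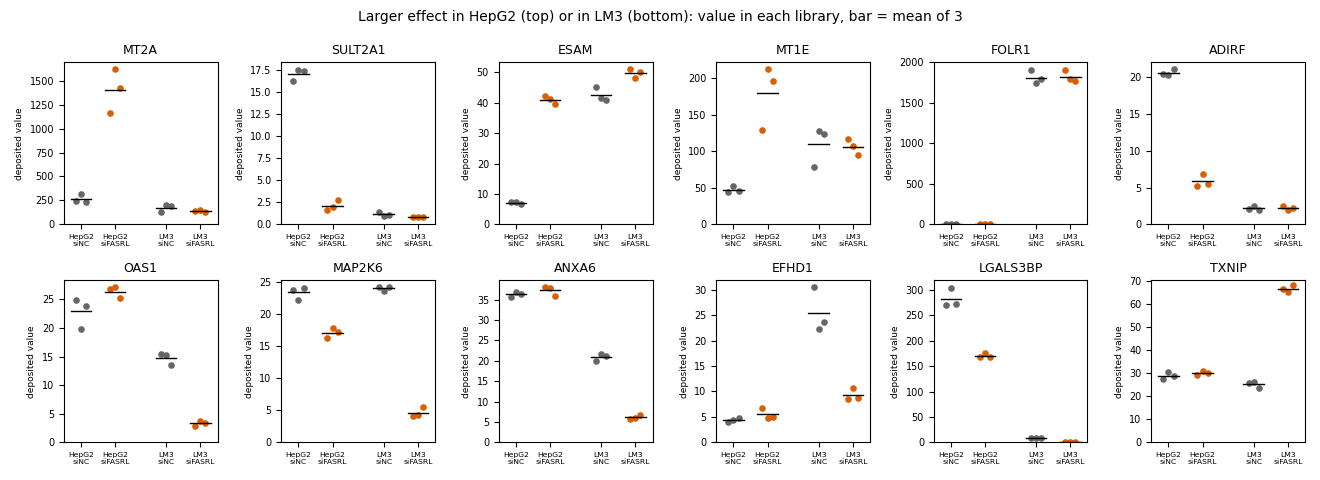
Deposited expression value (vertical axis, each panel with its own scale from 0) in each of the 12 samples for 6 genes with the larger effect in HepG2 (top) and 6 with the larger effect in LM3 (bottom), all expressed in both controls, with siNC in gray, siFASRL in orange and the mean of 3 replicates as a bar. MT2A reaches at least 1167.53 in HepG2 siFASRL samples and at most 197.71 in LM3, and OAS1 lies between 2.83 and 3.81 in LM3 siFASRL.

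The ERK and p53 lists had mostly negative differences. Of 23 ERK feedback and ETS genes, 20 rose in HepG2 and 13 in LM3, beside 45.2% and 31% of all tested genes. The difference was negative for 15 and positive for 2, beside 19.5% positive and 27.2% negative over all tested genes, with a median of -0.5 (from -0.6 to -0.34). DUSP4, a phosphatase that switches off ERK, rose in both lines, from 1.24 ± 0.09 to 10.64 ± 0.35 in HepG2 and from 8.63 ± 0.95 to 21.29 ± 1.14 in LM3 (SD, n = 3). The EGFR ligand genes EREG and AREG, named after their values were seen, rose in HepG2 with effects of 2.04 and 1.85 and did not exceed 0.52 in LM3. Among 37 p53 targets, 24 had a negative and 4 a positive difference, beside the same 27.2% and 19.5%. Their median effect was 0.23 in HepG2 and -0.4 in LM3, and their median difference -0.37 (from -0.39 to -0.21). CDKN1A, the cell cycle inhibitor p21, fell in both lines, from 161.76 ± 2.9 to 86.91 ± 3.59 in HepG2 and from 12.31 ± 1.33 to 2.29 ± 0.18 in LM3 (SD, n = 3). SESN2, a stress-induced regulator of mTORC1, had effects of 0.23 and -1.22.

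Of 51 genes of the ATF4 and unfolded protein response, 25 had a negative and 8 a positive difference (median -0.27, from -0.28 to -0.1), beside 19.5% positive and 27.2% negative over all tested genes, but 14 were negative and 13 positive with centred effects. With centring, the positive share among all called genes was 68.6%. CTH, an enzyme of cysteine synthesis from this list, had effects of 0.74 in HepG2 and -0.62 in LM3. Of 43 cytoskeleton and mesenchymal genes, 24 were negative and 5 positive (median -0.31, from -0.33 to -0.15), and with centred effects 18 and 7. Of 57 genes of matrix, integrins and proteases 29 were negative and 14 positive (median -0.29, from -0.32 to -0.13), and with centred effects 21 and 18. Of these 57, 40 were expressed in both lines, with a median of -0.3, and 10 were silent in LM3 siNC alone. The others were silent in HepG2 siNC or low in both controls. The direction of members low in both is tied to the filter on low values and is not a result. The tight junction gene CLDN4 and the collagen-binding integrin gene ITGA2 had opposite effects, with differences of -1.12 and -1.21, and COL1A1, a chain of type I collagen named after its values were seen, fell more in LM3 (difference -1.1). The secreted protease gene ADAMTS1 rose in HepG2 from 5.1 ± 0.24 to 15.13 ± 0.3 (SD, n = 3).

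Of 40 cytokine, chemokine and receptor genes, 20 had a negative and 9 a positive difference (median -0.24, from -0.33 to -0.08), beside 19.5% positive and 27.2% negative over all tested genes. Of these 40, 29 were expressed in both lines, with a median of -0.33, and 9 were silent in LM3 siNC alone. The direction of any member low in both controls is tied to the filter on low values and is not a result. IL6 rose in both lines, with effects of 4.23 in HepG2 and 3.16 in LM3. CSF1, a macrophage growth factor, had effects of 1.07 and -0.49. Of 34 TGF-beta and activin genes, 16 were negative and 9 positive (median -0.24, from -0.25 to -0.08), and the ligand gene BMP2 rose from 33.79 ± 2.36 to 160.74 ± 10.78 in HepG2 and from 1.76 ± 0.23 to 4.16 ± 0.06 in LM3 (SD, n = 3). INHBB, an activin subunit, had a difference of -1.33. BMP6, which induces hepcidin, rose in HepG2 from 5.11 ± 0.18 to 13.8 ± 0.09 (SD, n = 3). Of 25 iron and heme genes 11 were negative and 8 positive (median -0.12), but 6 and 9 with centred effects (median 0.04).

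The remaining signaling lists compare with differences that were positive for 19.5% and negative for 27.2% of all tested genes. Of 28 AP-1 and immediate early genes, 26 rose in HepG2 and 20 in LM3, beside 45.2% and 31% of all tested genes. These counts take in FOSB, BATF and KLF2, named after their values were seen. Their means reached 1 in siFASRL groups only, so their rise is tied to the filter on low values and is not a result. The difference was negative for 10 and positive for 5 (median -0.2, from -0.23 to -0.04), and with centred effects for 8 and 7. NR4A1, an orphan nuclear receptor of this list, had effects of 1.14 and -0.16. Of 29 YAP-TEAD targets, 11 were negative and 7 positive (median -0.05, but 0.02 under median-of-ratios scaling), and with centred effects 10 and 10 (median 0.11). F3, the tissue factor gene of this list, rose more in HepG2 (difference -1.54). Of 51 interferon and antigen presentation genes 21 were negative and 15 positive (median -0.15), but 14 and 18 with centred effects (median 0.02). Of 37 NRF2 targets and redox enzymes 13 were negative and 10 positive (median -0.11), with 12 and 6 at a pseudocount of 0.1, but 11 and 13 with centred effects (median 0.05). Of 23 beta-catenin targets 11 were positive and 6 negative (median 0.11), but 8 and 7 with a pseudocount of 0.1 (median 0.01), 12 and 8 under quantile normalization (median 0.43) and 12 and 3 with centred effects (median 0.27). In this list 7 genes were silent in LM3 siNC, and over those expressed in both lines the median was -0.15. SP5, a direct target of this pathway, fell from 51.92 ± 12.08 to 10.78 ± 0.79 in HepG2 and from 5.37 ± 0.83 to 2.99 ± 0.42 in LM3 (SD, n = 3).

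The cholesterol synthesis and uptake list fell in both lines, 25 of 28 tested genes in HepG2 and 26 in LM3, beside 44.6% and 42.3% of all tested genes, with medians of -0.93 and -1.11. The difference was negative for 15 and positive for 1 (median -0.26), beside 27.2% and 19.5% over all tested genes, but for 10 and 5 under quantile normalization (median -0.15) and for 8 and 5 with centred effects (median -0.1).

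Of 46 genes of fatty acid and triglyceride synthesis, 14 had a positive and 12 a negative difference, beside 19.5% positive and 27.2% negative over all tested genes, and with centred effects 21 and 9. The median effect was -0.5 in each line and the median difference 0.03 (up to 0.19 with centred effects), which was -0.01 with a pseudocount of 0.1 and over the members expressed in both lines. GPAM, which starts glycerolipid synthesis, fell in HepG2 from 8.78 ± 0.11 to 2.88 ± 0.08 and had 5.04 ± 0.16 and 4.66 ± 0.16 in LM3 (SD, n = 3), and AGPAT5, which acts in the next step of that pathway, had a difference of 1.08. Of 33 fatty acid oxidation genes 10 were negative and 5 positive (median -0.15), close to the shares over all tested genes, and 6 and 8 with centred effects (median 0.01). Of 23 genes of the citrate cycle and pyruvate dehydrogenase 11 were negative and 1 positive (median -0.26, from -0.29 to -0.06), and with centred effects 8 and 5. IDH1, the cytosolic isocitrate dehydrogenase, fell further in LM3. PCK1, an enzyme of gluconeogenesis, had effects of 0.3 and -0.71. Of 15 aldehyde dehydrogenases 5 were positive and 1 negative (median 0.17, from 0.14 to 0.33), and with centred effects 9 and 1. All 15 fell in HepG2 and 10 fell in LM3 by the limma test, beside 44.6% and 42.3% of all tested genes.

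Of 6 genes that the study itself chose on these samples, which are therefore not independent evidence, 3 did not pass the test of a difference. IDI1, an isomerase of cholesterol synthesis, fell in both lines (difference 0.1, 95% confidence interval -0.075 to 0.285, limma interaction adjusted p = 0.322). The intervals were -0.004 to 0.361 for DLD, a subunit of pyruvate dehydrogenase, and -0.257 to 0.159 for CPOX, an enzyme of heme synthesis. ALDH3A1, an aldehyde dehydrogenase, TP53INP2, an autophagy regulator, and HMGCS1, an enzyme of cholesterol synthesis, fell more in LM3, with differences of -0.45, -0.55 and -0.27. The call was lost with a pseudocount of 0.1 for ALDH3A1 and HMGCS1 (adjusted p = 0.331 and 0.0563), under quantile normalization for TP53INP2 (adjusted p = 0.418), and with centred effects for HMGCS1 and TP53INP2 (adjusted p = 0.276 and 0.0545). IDI1 and DLD passed with centred effects (adjusted p = 0.0177 and 0.00486), and DLD also under median-of-ratios scaling (adjusted p = 0.026) and without LM3 siNC replicate 1 (adjusted p = 0.0409). For ACACA, which makes malonyl-CoA and was not chosen on these samples, the difference was -0.09 (95% confidence interval -0.244 to 0.071, limma interaction adjusted p = 0.352).

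Lists of general cell functions depended on scaling and centring. Of 60 cytosolic ribosomal protein genes, 10 had a positive and 2 a negative difference (median 0.13), beside 19.5% positive and 27.2% negative over all tested genes. These were 17 and 1 under median-of-ratios scaling (median 0.2) and 31 and 1 with centred effects (median 0.29). Of 38 nuclear-encoded respiratory chain genes 4 were positive and 5 negative (median 0.01), but 6 and 3 under median-of-ratios scaling (median 0.08) and 10 and 3 with centred effects (median 0.17). Of 61 cell cycle and DNA replication genes 18 were positive and 11 negative (median 0.02), but 21 and 7 under median-of-ratios scaling (median 0.09) and 29 and 6 with centred effects (median 0.18). CCND3, a D-type cyclin, rose in HepG2 from 57.22 ± 3.35 to 129.06 ± 9.58 (SD, n = 3) and had 86.03 ± 0.84 and 79.02 ± 3.94 in LM3.

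**Figure D5:**
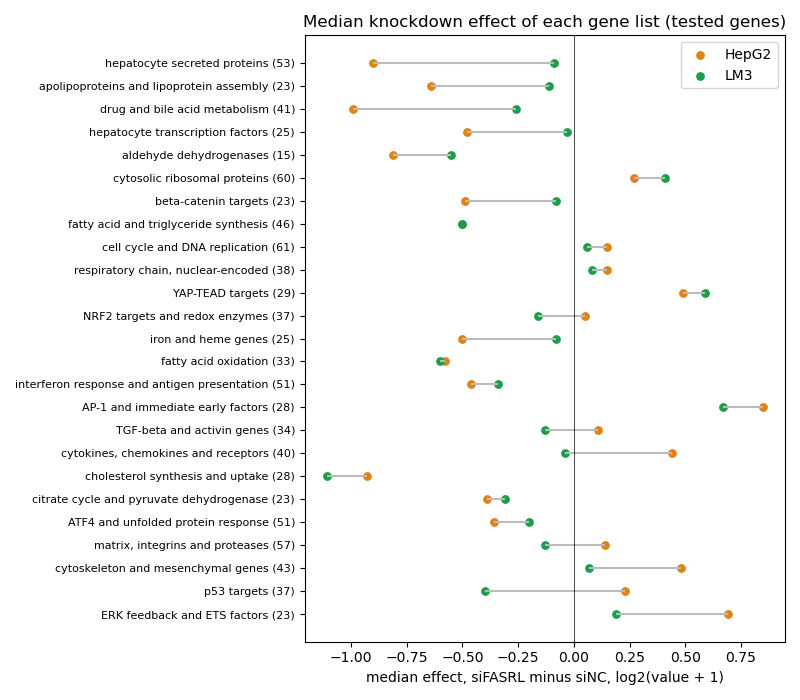
Median knockdown effect (horizontal axis, siFASRL minus siNC on the log2(value + 1) scale) over the tested genes of each of 25 gene lists (vertical axis, with the number of tested genes in parentheses), HepG2 in orange and LM3 in green, ordered by the median difference. Hepatocyte secreted proteins have medians of -0.9 in HepG2 and -0.09 in LM3, and p53 targets lie at 0.23 in HepG2 and -0.4 in LM3.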

How the data were processed

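RNA-seq of 12 samples (HepG2 and LM3, siFASRL or siNC, 3 replicates each) was analysed, grouped by the sample labels. The authors' tools were SOAPnuke for read filtering, HISAT2 for the genome, Bowtie2 for coding genes and RSEM for the expression values. The deposited values are a normalized signal per gene whose unit (FPKM or TPM) is not given in the sources used here. The submitters' processing notes name hg19, whereas the chromosome accessions in the tables are those of GRCh38. One table repeats 6 LM3 columns, which were identical to the samples' own and were not used again. The 17 symbols turned into dates were restored by gene identifier, and 8790 of 8842 genes were found in the RefSeq table.

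limma (3.58.1, R 4.3.3) was fitted to log2(value + 1) of all 12 samples with a mean per group, for genes that reached 1 in 3 or more samples, and p-values were adjusted by Benjamini-Hochberg over all 8285 genes. The interaction and the effect of each line came from the same fit, which was tested on simulated data. The added 1 understates changes of low genes. Opposite genes needed an adjusted p under 0.05 in both lines and for the interaction. Classes of larger or silent genes needed a difference of at least 1.

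Members and lists were chosen with earlier results of these data known. Named genes were the 10 opposite genes with the largest smaller effect, the 6 largest differences in each other class (with groups apart in the line with the larger effect, and in both lines for opposite genes), up to 2 per direction in each list, genes the study chose and ACACA, unless stated otherwise. Some genes that this rule chose are not reported here. Alternatives were the pseudocount, filter, scaling, centring, variance model, replicate block and leaving out each sample. Other tools were pandas (2.3.3) and matplotlib (3.10.9) in Python (3.11.15).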

Additional observations from a re-analysis of the deposited data

Results flagged for a closer look

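Each result here stands out because the knockdown effects of HepG2 and LM3 differed by the limma test of the difference itself. Values are the LM3 effect minus the HepG2 effect on the log2(value + 1) scale. This held for 3868 genes, by at least 1 for 401 genes. By class these were 404 genes with opposite effects, 177 silent in LM3 siNC, 17 silent in HepG2 siNC, 72 with the larger effect in HepG2 and 26 with the larger effect in LM3, where the opposite genes include differences under 1. A further 19 of the 401 were low in both controls. These 19, 2 of the 177 and 2 of the 17 passed the filter on low values only through siFASRL samples, so their direction is not a result.

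Among the strongest opposite effects the difference was -2.82 for NES, -1.88 for S100A3, 2.19 for FOXQ1, -2.04 for F2RL1, -2.3 for XAGE2, -2.06 for OLFM1, -1.9 for KIF3C, -2.59 for ELK3, -2.32 for BTG2 and -1.45 for MPP1. Opposite genes from the lists were ACSL5 (-2.07), PCK1 (-1.02), NR4A1 (-1.3), CTGF (1.63), CSF1 (-1.56), CLDN4 (-1.12), ITGA2 (-1.21), SESN2 (-1.45), STC2 (1.12), CTH (-1.36), DKK1 (2.02), AXIN2 (-1.14) and FST (1.45).

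Of genes silent in LM3 siNC, PGC had 3.13, TFF1 -3.07, APOC3 3.03, HAMP 2.8 and PLA2G2A 2.73, where TFF1 passed the filter on low values only through the HepG2 siFASRL samples in which it was high. Of genes silent in HepG2 siNC, LBH had -2.59, PPP2R2C -1.92, SPINK5 -1.78, MAP1A -1.73, PID1 -1.62 and PHOSPHO1 -1.44.

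The effect was larger in HepG2 for MT2A (-2.66), SULT2A1 (2.33), ESAM (-2.15), MT1E (-1.9), FOLR1 (1.88) and ADIRF (1.68). For FOLR1, the part of a trace from LM3 in the HepG2 values was not tested. The same held for C5 (1.36), FMO5 (1.12), GPAM (1.24), AGPAT5 (1.08), DUSP4 (-1.16), F3 (-1.54), IL6 (-1.07), ADAMTS1 (-1.5), CCND3 (-1.28), SP5 (1.47), INHBB (-1.33), BMP2 (-1.31) and BMP6 (-1.01).

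The effect was larger in LM3 for OAS1 (-2.07), MAP2K6 (-1.73), ANXA6 (-1.66), EFHD1 (-1.63), LGALS3BP (-1.53), TXNIP (1.31), IDH1 (-1.17) and CDKN1A (-1.12). Differences under 1 in size were found for ALDH3A1 (-0.45), HMGCS1 (-0.27) and TP53INP2 (-0.55), which the study chose.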

How the results depend on the processing

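The 3868 genes whose effect differed numbered between 3486 and 4069 with 1 sample left out in turn. The other counts also stayed within 1.5 times under leaving out a sample, between 396 and 419 for differences of at least 1, between 353 and 432 for opposite effects, between 176 and 192 and between 16 and 18 for genes silent in LM3 and in HepG2, and between 68 and 75 and between 24 and 29 for larger effects in HepG2 and in LM3.

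A pseudocount of 0.1 gave 664 genes with a difference of at least 1 in place of 401, 275 genes silent in LM3 in place of 177, 42 silent in HepG2 in place of 17, and 81 with the larger effect in LM3 in place of 26. A smaller pseudocount stretches the scale of low values. Centred effects gave 247 opposite genes in place of 404, 11 silent in HepG2 and 16 with the larger effect in LM3, and 31 genes remained when each opposite effect had to reach 0.5. Quantile normalization gave 115 genes with the larger effect in HepG2 in place of 72, 14 with the larger effect in LM3 and 11 silent in HepG2. A filter at 5 left 7 genes silent in HepG2, as did a silent threshold of 0.5. The filter leaves fewer genes to test, 6946. For the other changes the cause was not tested.

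Whether the replicate numbers pair the samples is not settled. Same-numbered deviations from the group means correlated with r of 0.312, 0.362 and -0.195 in HepG2 and of -0.083, 0.091 and -0.163 in LM3. For different numbers r ran from -0.448 to 0.289 in HepG2 and from -0.113 to 0.175 in LM3. With 3 samples per group these values cannot decide it. With a replicate block 3735 genes differed, 401 by at least 1, and 395 had opposite effects. The block gave 177, 17, 71 and 26 genes in the other classes.

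Of 68 named genes, 63 were tested under all 21 settings, and 56 of these kept their call and direction. The other 5 (MAP1A, PCK1, PHOSPHO1, PID1 and PPP2R2C) were not tested with the filter at 5 and kept theirs under the 20 settings run. The difference of CPOX, which did not pass the test, changed sign under median-of-ratios scaling (0.01), quantile normalization (0.17) and centring (0.11), and without HepG2 siNC replicate 3 (0.01) or LM3 siNC replicate 1 (0.02), with a range from -0.1 to 0.02 when each sample was left out, and that of ACACA under centring (0.07). Depth is unknown and limits low values most.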

Other observations

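Genes abundant in HepG2 were present at trace level in LM3, and the trace differed between samples. There were 28 genes with a mean of at least 100 in HepG2 siNC and below 2 in both LM3 groups, a choice made after the values were seen. Their summed value, as a percentage of the 10015.9 that they summed to in HepG2 siNC, was 0.0799%, 0.186% and 0.138% in LM3 siNC replicates 1, 2 and 3 and 0.0608%, 0.0376% and 0.0344% in the LM3 siFASRL replicates. LM3 siNC replicate 2 held the most and LM3 siFASRL replicates 2 and 3 the least. The values of SERPINA1, the gene of alpha-1-antitrypsin, were 0.08, 1.73 and 1.26 in LM3 siNC and 0.37, 0.03 and 0.03 in LM3 siFASRL, beside a HepG2 siNC mean of 1392.67. Its LM3 effect of -0.73 passed the limma test (adjusted p = 0.0166) on these values, and its LM3 siNC mean of 1.02 put it just above the threshold for a silent gene. ALB had an LM3 effect of -0.34 (adjusted p = 0.0214). The part of the trace in these LM3 effects was not tested. Nor was its part in the counts of hepatocyte markers and secreted protein genes that fell in LM3.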
